A study of Mus musculus with 8 samples.

Results

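Tenascins, periostin, fibronectin, fibrillins, elastin and fibulins are secreted glycoproteins that build or decorate the extracellular matrix, and 10 of their genes were followed here in the developing mouse molar. The genes were Tnc, Tnn, Postn, Fn1, Fbn1, Fbn2, Eln, Fbln1, Fbln2 and Fbln5, chosen by name, and each had 1 row among the 43629 Ensembl genes of the count tables. All 10 passed the filter on low counts that left 17129 genes for testing. RNA was sequenced from lower molars of mouse embryos at E18.5, with 4 Control and 4 Mutant libraries. By the series labels the Control embryos were Jagged1 fl/fl, with no Cre transgene named, while the methods of the study call them WT, and Mutant embryos were K14Cre;Jagged1 fl/fl littermates. The keratin 14 promoter drives Cre in epithelium, the tissue in which the gene is to be deleted. Each library pooled the left and right molars of 1 embryo, and the sex of the embryos is not given in the labels. Total counts ran from 17327224 in Control J3 to 29792467 in Mutant K14J29, and 3 counts were worth at most 0.166 CPM. Values are CPM, counts-per-million after scaling by the trimmed mean of M-values (TMM).

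Fibronectin is laid down as fibrils on cell surfaces through integrins, and these fibrils serve as a scaffold for the deposition of fibrillins, tenascins and periostin. Fibrillins assemble into microfibrils, on which tropoelastin is placed with the help of fibulins before lysyl oxidases cross-link it into elastic fibres. In the tooth germ, tenascin C and fibronectin are known from the dental mesenchyme and its border with the epithelium, and periostin from the dental follicle that becomes the periodontal ligament.

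Jag1, the floxed gene, was at 95.2, 103, 104 and 99.8 CPM in Control J3, J5, J6 and J7 and at 34.0, 38.9, 45.9 and 57.1 CPM in Mutant K14J26, K14J28, K14J29 and K14J30. All 4 Mutant libraries lay below all 4 Control libraries, as their labels say. The log2 fold change of Jag1, Mutant over Control, was -1.19 ± 0.14 (SE, n = 4 and 4) with an adjusted p of 0.00517 in edgeR's quasi-likelihood test, and the call held with each embryo left out in turn. Without Control J6 and J7 together the log2 fold change of Jag1 was -1.17 and the adjusted p 0.115 in edgeR.

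Several libraries stood apart within their group. Summed over the 5 genes of the ameloblast list, the enamel-forming cells, the level was 680, 1902, 3252 and 557 CPM in Control J3, J5, J6 and J7 and 114298, 3500, 25803 and 9637 CPM in Mutant K14J26, K14J28, K14J29 and K14J30. Amelx was its most abundant gene, and neither defining marker, Amelx or Ambn, was at 0 in any library. The 4 genes of the odontoblast list, led by Dspp, summed to 707, 1589, 1993 and 764 CPM in the Control libraries and 7479, 2345, 5689 and 3498 CPM in the Mutant libraries, embryos in the order just given, with Dspp and Dmp1 above 0 in each. Mutant K14J26 was thus far above the other Mutant libraries in enamel transcripts, and K14J28 was lowest. The 7 skeletal muscle genes, led by Acta1, summed to 373 CPM in Control J6 and 184 CPM in Control J7, and to between 4.70 and 17.6 CPM in the other libraries. The 5 oral mucosa and skin genes, led by Krt13, summed to 682 CPM in Mutant K14J28 and to at most 141 CPM elsewhere. The dental epithelium list, led by Krt5 and defined by Krt14 and Krt5, was between 4654 and 5368 CPM in the Control and between 5483 and 8078 CPM in the Mutant libraries, which were all higher. Its genes did not all follow, since Epcam was at 218 to 255 CPM in the Control and 113 to 194 CPM in the Mutant libraries. The dental mesenchyme list, led by Vim and defined by Msx1 and Prrx1, was between 969 and 1196 CPM in all 8. Both tissues of a molar were therefore present in every library. In such bulk tissue, fewer cells of a type and less RNA per cell cannot be told apart.

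Of the 10 matrix genes, Tnc and Fbln2 were higher and Fbn2 was lower in the Mutant molars at an adjusted p under 0.05, and 7 were not called. Over all 17129 genes tested, 16.1% were called in either direction, 9.52% as higher and 6.61% as lower. The 3 calls among 10 genes stand beside that background, and nothing particular to these genes is read from so small a count. The median log2 fold change was -0.05 over the 10 genes and 0.0058 over all genes tested, and the median size of the change, regardless of direction, was 0.29 and 0.22. The study sets a p of 0.05 and a fold change of 0.5 as limits without saying in its methods whether p is adjusted or on which scale the fold change is, and they are read here as unadjusted and as log2. On that reading Fbn2 and Fbln2 were past the threshold, against 14.2% of all genes. For Tnc, Fbn1, Fbn2 and Fbln2 no Mutant library lay within the Control range or the reverse, and this held for 24.2% of all genes. Without Control J6 and J7, the libraries with muscle transcripts, edgeR called only 3 of all genes higher and 4 lower. Tnc, Fbln2 and Fbn2 were not among them, at log2 fold changes of 0.50, 1.17 and -0.61. This fit also held fewer Control libraries. Leaving out J6 alone gave 853 higher and 553 lower, and J7 alone 300 and 236. The fewest with 1 embryo left out were 250 and 170, without Mutant K14J29. The parts of muscle transcripts and of the number of libraries in these counts were not tested. With Xist as a covariate Fbn2 was not called either, at -0.80 with an adjusted p in edgeR that rounds to 0.05, at the threshold. Scaling by library size alone turned the balance of calls over all genes, to 864 higher and 1065 lower.

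**Figure D1:**
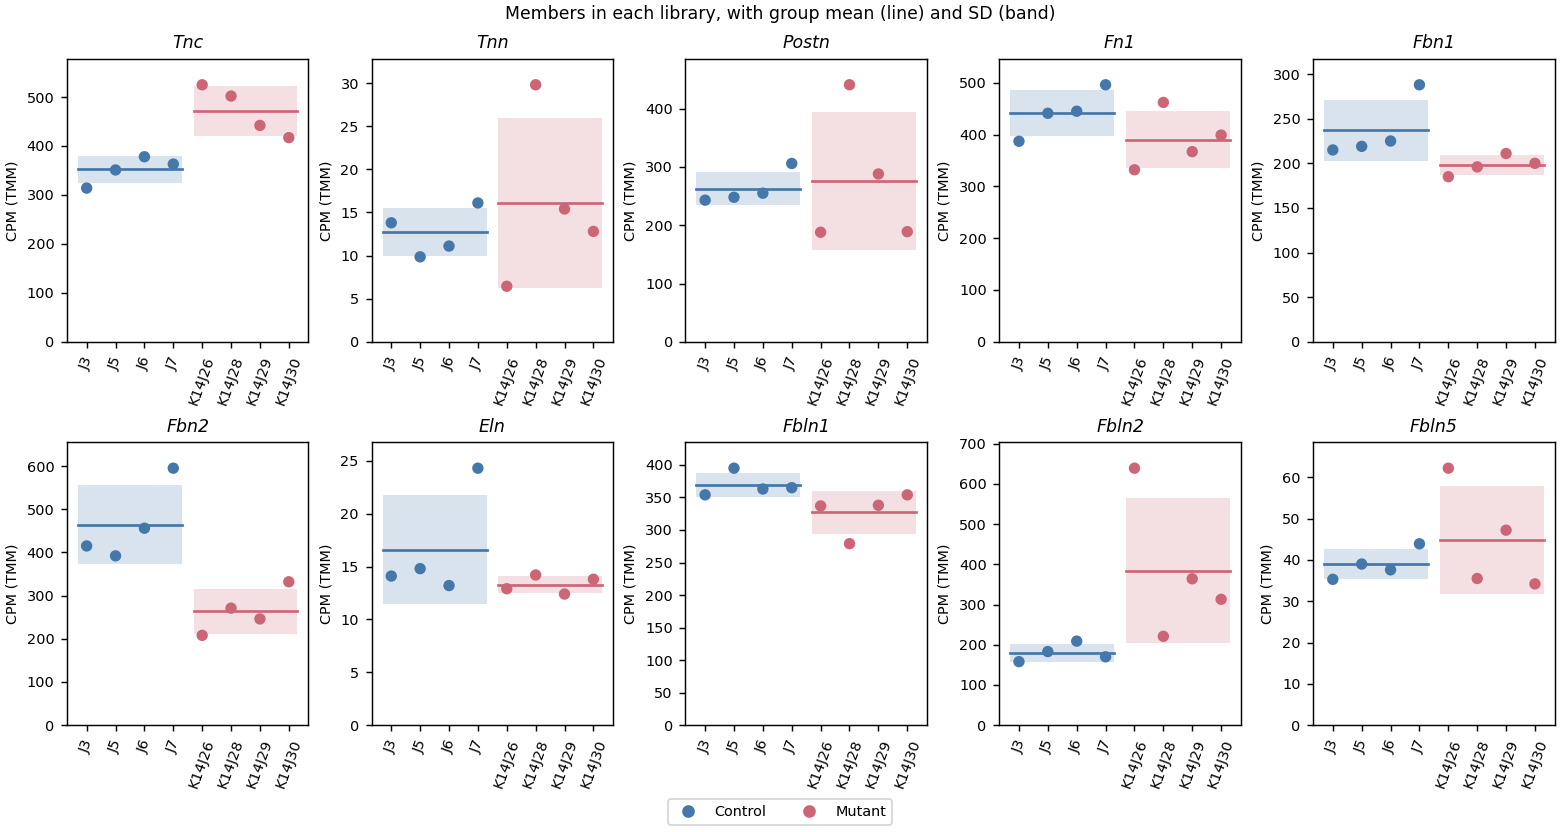
CPM of each of the 10 genes in the 8 libraries, with a line for the mean and a band for the SD of each group of 4, on axes that start at 0. Tnc and Fbln2 lay higher and Fbn2 and Fbn1 lower in all Mutant libraries than in any Control library, and single libraries stand out in several panels, such as K14J28 for Postn and Tnn and J7 for Eln.

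Tnc encodes tenascin C, a multi-armed glycoprotein that modulates the adhesion of cells to fibronectin. Its gene lies on chromosome 4 from 63959785 to 64047015 on the minus strand (GRCm38). Tnc was at 314, 351, 378 and 363 CPM in Control J3, J5, J6 and J7 and at 525, 502, 442 and 417 CPM in Mutant K14J26, K14J28, K14J29 and K14J30. The lowest Mutant library, K14J30, was above the highest Control library, J6. The means were 352 ± 27.4 and 471 ± 50.6 CPM (SD, n = 4 each). On the log2 scale the difference was 0.42 with a 95% confidence interval from 0.22 to 0.63 and an adjusted p of 0.0198 in edgeR. The rise is 1.34-fold and so under the fold criterion of the study if that is read as log2. The call ended without Control J3 (adjusted p = 0.0601 in edgeR), J5 (0.0601) or J7 (0.0586) and without Mutant K14J29 (0.0549), while the log2 fold change stayed between 0.37 and 0.48 with any embryo left out. Scaling by library size alone also ended it, at a log2 fold change of 0.32 and an adjusted p of 0.0535.

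Tnn encodes tenascin N, also called tenascin W, a tenascin of bone and of periosteum. Tnn was at 13.8, 9.85, 11.1 and 16.1 CPM in the Control libraries in the order above and at 6.44, 29.8, 15.4 and 12.8 CPM in the Mutant libraries. K14J28 held the highest and K14J26 the lowest value of all 8, and the groups overlapped. Its estimate on the log2 scale was 0.34 with an interval from -0.52 to 1.21 and an adjusted p of 0.552 in edgeR, so that a difference in either direction of a size like that of Tnc was not detectable. Without K14J28 the estimate was -0.14, and with Xist as a covariate it was -0.49 with an adjusted p of 0.335 in edgeR.

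Postn encodes periostin, a fasciclin-domain protein that binds tenascin C, fibronectin and collagen. Its gene was at 243, 248, 255 and 306 CPM in the Control libraries and at 188, 441, 288 and 189 CPM in Mutant K14J26, K14J28, K14J29 and K14J30. The Control libraries lay close together, while the Mutant libraries reached both above and below them. The means, 263 ± 28.8 and 276 ± 119 CPM (SD, n = 4 each), differed by less than the spread among the Mutant libraries, and the log2 fold change of 0.07 had an interval from -0.49 to 0.64 and an adjusted p of 0.868 in edgeR. Without K14J28 the log2 fold change of Postn was -0.25, with scaling by library size alone it was -0.0027, and with Xist as a covariate it was -0.52 with an adjusted p of 0.0631 in edgeR, the lowest of its fits, again without a call. The coefficient of variation of Postn was 10.9% in Control and 43.1% in Mutant libraries. Whether the spread itself differed between the groups was not tested.

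K14J28 was the highest library for Postn and Tnn, and it also held the most Ibsp, a bone sialoprotein gene and defining osteoblast marker, at 447 CPM against 141 to 189 CPM in the other 7. The other osteoblast genes did not all follow, since Bglap, at 31.3 CPM in K14J28 against 201, 105 and 73.5 CPM in K14J26, K14J29 and K14J30, and Bglap2, at 10.5 against 49.9, 33.6 and 25.8 CPM, were lowest there of the Mutant libraries. The 6 osteoblast genes, led by Spp1 with Bglap as the other defining marker, summed to 690, 854, 618 and 683 CPM in the Control libraries and 734, 1066, 851 and 714 CPM in the Mutant libraries, with no defining marker at 0. Of these genes 3 were called higher, Bglap, Bglap2 and Sp7, and 1 lower, Runx2. Across the Mutant libraries Bglap and Bglap2 ran in the order of the summed odontoblast list, and Sp7 did not. Which cells made these transcripts was not tested. Bglap2, Sp7, Runx2 and the single macrophage genes are named after their values were seen. Macrophage genes, led by Csf1r, summed to 160 CPM in K14J28 and to between 60.4 and 97.6 CPM elsewhere. Csf1r at 92.7 CPM and Cd68 at 42.3 CPM carried this sum, while Adgre1 at 4.79, C1qa at 7.95 and C1qb at 12.4 CPM in K14J28 lay below their Control means of 5.57, 12.1 and 17.1 CPM. For this list edgeR called 0 of the 5, with none at an unadjusted p under 0.05 and 0 called by DESeq2. The part of the cells behind these markers in the values of Postn and Tnn was not tested.

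Fn1 encodes fibronectin. It ranged from 387 to 496 CPM in the Control and from 332 to 462 CPM in the Mutant libraries, with K14J26 lowest and J7 highest. The groups overlapped, since K14J28 was above J3, J5 and J6 and K14J30 was above J3. For Fn1 the log2 fold change was -0.18 with an interval from -0.43 to 0.07 and an adjusted p of 0.274 in edgeR. It was -0.11 without K14J26, and without K14J28 it was -0.28 with an adjusted p of 0.0687 in edgeR, again without a call.

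Fbn2 encodes fibrillin 2, the fibrillin that predominates in the microfibrils of embryonic tissues. Fbn2 was at 415, 392, 456 and 595 CPM in Control J3, J5, J6 and J7 and at 208, 271, 246 and 332 CPM in Mutant K14J26, K14J28, K14J29 and K14J30. The highest Mutant library, K14J30, was below the lowest Control library, J5. Mean levels were 464 ± 90.9 CPM in Control and 264 ± 52.2 CPM in Mutant libraries (SD, n = 4 each), 1.76-fold higher in Control. The log2 fold change was -0.81 with an interval from -1.19 to -0.44 and an adjusted p of 0.0174 in edgeR. Without Control J7, the library with the most Fbn2, it was -0.68 and the adjusted p 0.0521 in edgeR, and without Mutant K14J29 it was -0.78 with an adjusted p of 0.0613. The estimate lay between -0.94 and -0.68 with any single embryo left out.

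Fbn1 encodes fibrillin 1, the fibrillin of microfibrils throughout life. The Control libraries held 215, 219, 225 and 288 CPM of Fbn1 and the Mutant libraries 185, 196, 211 and 200 CPM. All Mutant values were below all Control values, though K14J29 at 211 CPM and J3 at 215 CPM were close, and J7 was far above the other Control libraries. For Fbn1 the log2 fold change was -0.26 with an interval from -0.48 to -0.04, and the adjusted p was 0.0948 in edgeR, so Fbn1 was not called, and without J7 the estimate was -0.16 with an adjusted p of 0.167. As a ratio of CPM in the same library, Fbn2 to Fbn1 was 1.93, 1.78, 2.02 and 2.07 in the Control and 1.12, 1.38, 1.16 and 1.66 in the Mutant libraries. The ratio was thus lower in every Mutant library than in any Control library, a description of these 8 values without a test.

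Eln encodes tropoelastin, the soluble precursor of elastin. It was at 14.1, 14.8, 13.2 and 24.3 CPM in the Control and at 12.9, 14.2, 12.4 and 13.8 CPM in the Mutant libraries. Except for J7, the libraries of the groups were close together and overlapped. The log2 fold change of -0.32 had an interval from -0.74 to 0.09 and an adjusted p of 0.245 in edgeR, and without J7 it was -0.08. J7 also held the most Fbn1, Fbn2 and Fn1. The part of other tissue in J7 in these values was not tested. Leaving out J7 and K14J28 together, chosen after the data were seen, kept Fbn2 and Fbln2 called and ended the call of Tnc, at a log2 fold change of 0.40 and an adjusted p of 0.0511 in edgeR.

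Fbln2 encodes fibulin 2, which binds fibronectin, fibrillin and tropoelastin in basement membranes and at sites where epithelium and mesenchyme meet. The gene lies on chromosome 6 from 91212455 to 91272540 on the plus strand. Fbln2 was at 158, 183, 209 and 170 CPM in Control J3, J5, J6 and J7 and at 639, 221, 364 and 313 CPM in Mutant K14J26, K14J28, K14J29 and K14J30. K14J26 was far above the other Mutant libraries, and K14J28 was close to Control J6, so that the groups did not overlap by a small margin. The means were 180 ± 21.8 and 384 ± 180 CPM (SD, n = 4 each). The rise was 2.13-fold, or 1.09 on the log2 scale, with an interval from 0.47 to 1.71 and an adjusted p of 0.0313 in edgeR. Without K14J26 the log2 fold change was 0.73 and the call held. The call ended without Control J3 (adjusted p = 0.0880 in edgeR), J5 (0.0769), J6 (0.0550) or J7 (0.0895) and without Mutant K14J29 (0.0780), with log2 fold changes between 1.03 and 1.17.

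The order of the Mutant libraries for Fbln2, K14J26, K14J29, K14J30 and K14J28 from high to low, was that of the summed ameloblast and odontoblast lists. Among the Control libraries, J6 and J5 were above J7 and J3 for Fbln2 and for both lists. After the group means were subtracted on the log2 scale, Pearson's r between Fbln2 and the summed ameloblast list was 0.95 over the 8 libraries, and 0.82 with the odontoblast list. Values of like size were found with other lists, 0.94 with dental epithelium, 0.79 with neuronal genes, -0.84 with macrophage, -0.82 with smooth muscle and pericyte and -0.80 with erythroid genes. An r of this size was thus not confined to the enamel and dentin lists. The points share library depth and scaling and only 4 embryos stand behind each group, so these values describe the libraries. For Tnc the values with the ameloblast and odontoblast lists were 0.39 and 0.38, and K14J28, low in enamel transcripts, held the second highest Tnc. Of the ameloblast list 4 of 5 genes were called higher, Amelx, Ambn, Enam and Mmp20, and of the odontoblast list 3 of 4, Dspp, Phex and Nes. The part of the state of these cells in the rise of Fbln2 was not tested.

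**Figure D2:**
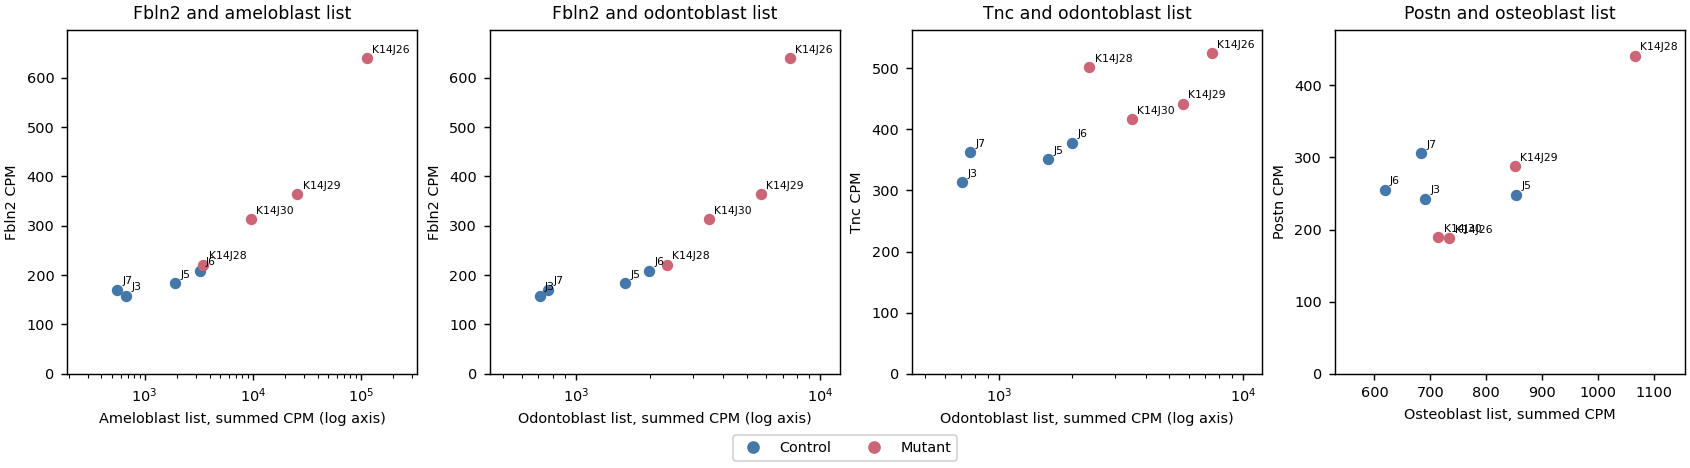
CPM of Fbln2, Tnc and Postn in each library (y axes) against the summed CPM of the ameloblast, odontoblast or osteoblast markers (x axes, logarithmic except for the osteoblast list), blue for Control and red for Mutant. Fbln2 follows the enamel and dentin lists from J3 and J7 up to K14J26 at 639 CPM, and K14J28 lies apart for Postn at 441 CPM.

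Fbln1 encodes fibulin 1, found with fibronectin in many matrices and in elastic fibres, and Fbln5 encodes fibulin 5, which is needed to place tropoelastin on microfibrils. Fbln1 ranged from 354 to 395 CPM in the Control and from 279 to 354 CPM in the Mutant libraries. K14J28 was lowest, and K14J30 and J3 met at 354 CPM. The log2 fold change of Fbln1 was -0.18 with an interval from -0.36 to 0.01 and an adjusted p of 0.160 in edgeR. It was -0.11 without K14J28 and -0.09 with Xist as a covariate. Fbln5 ranged from 35.3 to 43.9 CPM in the Control and from 34.2 to 62.2 CPM in the Mutant libraries, with K14J26 highest. Its log2 fold change was 0.20 with an interval from -0.21 to 0.60 and an adjusted p of 0.459 in edgeR. Without K14J26 the estimate of Fbln5 was -0.00084, and with scaling by library size alone it was 0.07. Within the fibulins, the Fbln2 to Fbln1 ratio of a library was between 0.448 and 0.577 in Control and between 0.793 and 1.90 in Mutant molars.

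Per kilobase of exon, Fbln1 was the most abundant of the 10 genes in Control molars at 84.6 ± 4.12 CPM per kilobase (SD, n = 4). Tnc followed with a level of 45.3 ± 3.52, then Fn1 with 37.8 ± 3.83, Fbn2 with 35.1 ± 6.88, Postn with 30.2 ± 3.31 and Fbln2 with 28.3 ± 3.43 CPM per kilobase. Neighbours from Fn1 to Fbln2 in this order differed by less than the larger of their SDs. Fbn1 was lower at a level of 19.5 ± 2.80, and Fbln5 at 5.64 ± 0.522, Tnn at 2.19 ± 0.482 and Eln at 2.05 ± 0.639 CPM per kilobase were the least abundant, with Tnn and Eln not apart beyond their spread on this length. In Mutant molars Fbln2 had a level of 60.3 ± 28.2 CPM per kilobase, next to Tnc at 60.7 ± 6.51, and Fbn2 had one of 20 ± 3.95, next to Fbn1 at 16.3 ± 0.911. With the longest transcript as the length, Fbln1 was still highest at 101 CPM per kilobase, while Fn1 at 53.1 and Postn at 50.4 came before Tnc at 49.5 and Fbn2 at 42.1. Eln, at 4.31 ± 1.34, was then above Tnn, at 2.19 ± 0.482, by more than the larger SD, so the order among Tnc, Fn1, Postn and Fbn2 and that of Eln and Tnn depend on the length used.

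**Figure D3:**
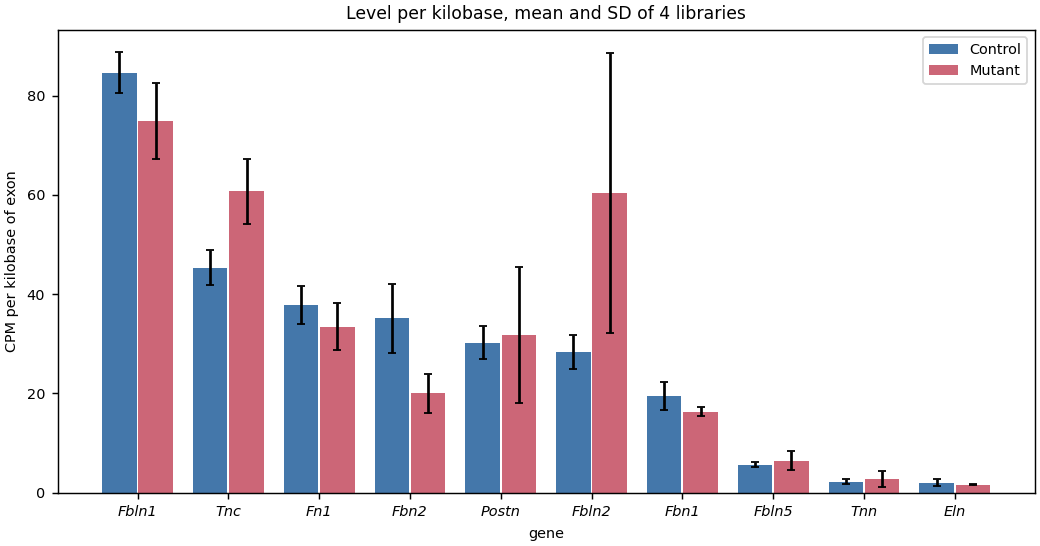
Mean CPM per kilobase of exon of each gene in Control (blue) and Mutant (red) molars, with bars from 0 and the SD of 4 libraries as error bars. Fbln1 is highest in both groups, Fbln2 is below Fbn2 in Control and above it in Mutant molars, and Eln and Tnn are near the bottom.

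Elastic fibre assembly takes further proteins, and of a list of 23 such partner genes all were tested, 4 were called higher, 3 lower and 16 were not called, with a median log2 fold change of -0.03. Those called higher were Loxl4 and Lox, lysyl oxidases that cross-link elastin and collagen, Ltbp2, a latent TGF-beta binding protein of microfibrils, and Fbln7, a fibulin of teeth. Lox was at 63.7, 96.9, 105 and 77.1 CPM in Control J3, J5, J6 and J7 and at 217, 151, 191 and 127 CPM in Mutant K14J26, K14J28, K14J29 and K14J30, all above the Control libraries, with a log2 fold change of 1.0 ± 0.20 (SE). Loxl4 was at 4.10, 8.69, 12.3 and 4.73 CPM and at 54.9, 17.3, 36.3 and 24.4 CPM, a log2 fold change of 2.16 ± 0.43. Fbln7 was at 11.2, 22.2, 32.5 and 13.2 CPM and at 103, 32.0, 76.4 and 58.8 CPM, so that K14J28 overlapped with J6, with a log2 fold change of 1.77 ± 0.41. Both Loxl4 and Fbln7 had K14J26 highest and K14J28 lowest of the Mutant libraries, as Fbln2 did. Ltbp2 had a log2 fold change of 0.96 ± 0.19. Those called lower were Emilin3, at -1.33 ± 0.23, a glycoprotein of the elastin interface family, and the microfibril-associated Mfap4, at -0.71 ± 0.14, and Mfap2, at -0.23 ± 0.06. Adjusted p-values of these 7 genes in edgeR ran from 0.0112 for Emilin3 to 0.0358 for Mfap2.

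**Figure D4:**
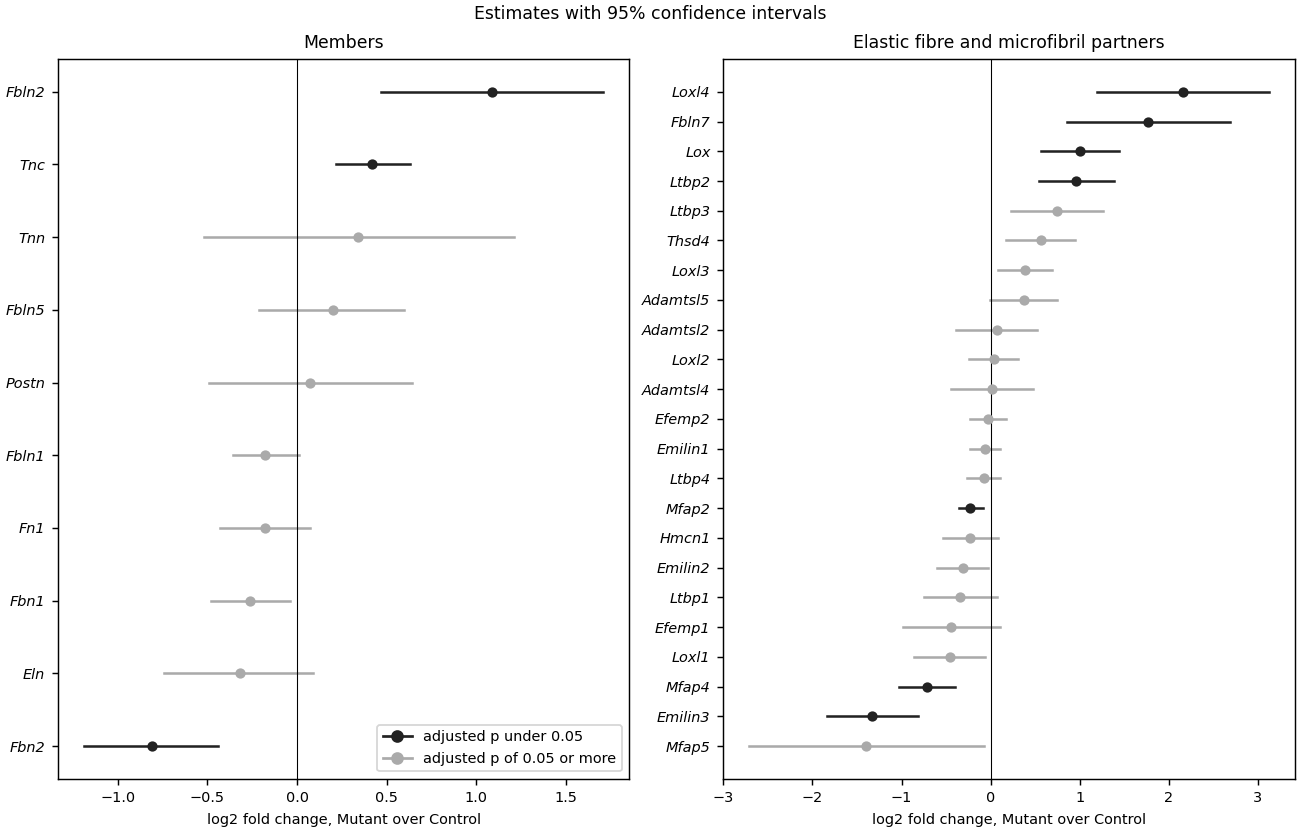
Log2 fold changes, Mutant over Control, with 95% confidence intervals for the 10 genes (left) and for the 23 elastic fibre partners (right), dark where the adjusted p was under 0.05. Fbln2 and Tnc lie above and Fbn2 below 0 among the 10, and the partners spread from Mfap5 at -1.40, which was not called, to Loxl4 at 2.16.

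The tenascins Tnr and Tnxb and the periostin relative Tgfbi were all tested, and edgeR called 0 of the 3, with a median log2 fold change of -0.30. Tgfbi and Tnxb had an unadjusted p under 0.05, and DESeq2 called 2 of the 3. In edgeR the adjusted p was 0.0680 for Tgfbi and 0.112 for Tnxb. Tnxb was at 4.90 CPM in J7 and at most at 0.778 CPM in the other libraries.

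Among 11 matricellular genes, 1 was called higher and 2 lower, with a median log2 fold change of -0.17. The gene called higher was Sparc, a collagen-binding protein of mineralizing tissue, at 1415, 1804, 2014 and 1651 CPM in Control and 4800, 1980, 3570 and 2803 CPM in Mutant libraries. K14J26 was highest for Sparc, and K14J28 lay below Control J6, so that the groups overlapped, with a log2 fold change of 0.93 ± 0.24 (SE) and an adjusted p of 0.0323 in edgeR. Smoc2, a relative of Sparc in basement membranes, was at 157, 106, 142 and 199 CPM in Control and at 39.9, 76.4, 87.6 and 89.5 CPM in Mutant libraries, and all Mutant values lay lower, with a log2 fold change of -1.04 ± 0.26 and an adjusted p of 0.0300 in edgeR. Smoc1 had a log2 fold change of -1.09 ± 0.29 and an adjusted p of 0.0365 in edgeR.

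Integrins and syndecans bind fibronectin, tenascin C and periostin at the cell surface, and of 12 such receptor genes 1 was called higher and 2 lower, with a median of -0.04. Itgb6, the epithelial partner of the alpha v integrin subunit, was at 27.6, 36.7, 37.5 and 24.3 CPM in Control and at 151, 38.8, 84.6 and 51.5 CPM in Mutant libraries. K14J26 was again highest and K14J28 barely above the Control libraries, with a log2 fold change of 1.37 ± 0.38 (SE) and an adjusted p of 0.0412 in edgeR. Without K14J26 the log2 fold change of Itgb6 was 0.89 with an adjusted p of 0.0361 in edgeR. Sdc4, a syndecan that binds fibronectin, was at 111, 113, 118 and 124 CPM in Control and at 94.3, 86.1, 84.8 and 87.7 CPM in Mutant libraries, a small and even difference with a log2 fold change of -0.40 ± 0.06 and an adjusted p of 0.00949 in edgeR. Itga8, the alpha subunit of a receptor for fibronectin and tenascin C, had a log2 fold change of -0.54 ± 0.14 and an adjusted p of 0.0330 in edgeR.

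Of 8 matrix genes listed as partners of fibronectin, 6 were tested and 1 was called lower, with a median log2 fold change of -0.12. Of the others, Vtn did not pass the count filter, and Fbn3 had no entry under that symbol and so was not measured. Of these 6, 5 had an unadjusted p under 0.05, and DESeq2 called 4, 1 higher and 3 lower. Over all 17129 genes, 5971 were within the unadjusted p limit of 0.05, and DESeq2 called 2244 higher and 1718 lower. The same background stands behind such counts for the other lists. Vcan, the large proteoglycan versican, was at 1026, 844, 907 and 1175 CPM in Control and at 476, 691, 492 and 583 CPM in Mutant libraries. All Mutant values of Vcan lay below the Control values, with a log2 fold change of -0.82 ± 0.14 (SE), close to that of Fbn2, and an adjusted p of 0.0118 in edgeR. Across the partner lists, 14 genes were called. All 14 kept their direction with any single embryo left out. The number with an adjusted p under 0.05 was 4 without Control J3, 9 without J5, 8 without J6, 3 without J7, 14 without Mutant K14J26, 14 without K14J28, 3 without K14J29 and 13 without K14J30, and Emilin3, Sdc4 and Vcan were called in all 8 of these fits. Without Control J6 and J7 together, 0 of the 14 were called while all 14 kept their direction, with Emilin3 at a log2 fold change of -1.05 (adjusted p = 0.133 in edgeR), Sdc4 at -0.34 and Vcan at -0.74 (0.135 each). With Xist as a covariate 11 of the 14 were called, and Mfap2 (adjusted p = 0.112 in edgeR), Smoc1 (0.089) and Itga8 (0.0611) were not. The robust form of the test lost Itgb6 (0.0623), the fit with no count filter lost Mfap2 (0.0606), and Sparc was not tested where the 20 most abundant genes were left out.

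Other cell type lists were read beside the matrix genes, and the genes of a short count were named after their values were seen. Smooth muscle and pericyte genes, led by Acta2 and defined by Acta2 and Tagln, summed to 533, 544, 451 and 556 CPM in Control and to 346, 538, 428 and 374 CPM in Mutant libraries, and 1 of 7, Pdgfrb, was called lower. In deviations from the group means, this sum had an r of 0.89 with Postn and of 0.87 with Tnn over the 8 libraries, and K14J28 was the highest Mutant library for each. Other lists gave values of like size, Tnn having an r of -0.90 with ameloblast, -0.89 with dental epithelium, -0.85 with neuronal and 0.83 with macrophage genes, and Postn of 0.82 with macrophage genes. Tendon genes, led by Tnmd and defined by Scx and Tnmd, summed to 24.8 to 37.5 CPM, and 1 of 3, Tnmd, was called lower. Endothelial genes, led by Cdh5 with Pecam1 as the other defining marker, summed to 223 to 305 CPM, and edgeR called 0 of 6, with 2 at an unadjusted p under 0.05, Cdh5 and Emcn, and DESeq2 called 2. Cartilage genes, led by Sox9 and defined by Col2a1 and Acan, summed to 62.9 to 87.3 CPM, and edgeR called 0 of 4 tested, with 1 at an unadjusted p under 0.05, Sox9, and DESeq2 called 1. Erythroid genes, led by Hbb-bs and defined by Hba-a1 and Hbb-bt, summed to 578 to 1398 CPM. Of these 4 genes, and of the 5 mucosa and skin genes, defined by Krt1 and Krt10, edgeR and DESeq2 called 0, with 0 at an unadjusted p under 0.05. Neuronal genes, led by Tubb3 and defined by Tubb3 and Elavl4, summed to 181 to 326 CPM, and 1 of 3 tested, Tubb3, was called higher. Tubb3 and Stmn2 made up nearly all of this sum and so carried its r values. Elavl4 reached at most 2.04 CPM and Prph at most 0.415 CPM in any library. Of the dental mesenchyme list 4 of 6 genes were called lower, Msx1, Lhx8, Barx1 and Pax9. Of the dental epithelium list 1 of 6 was called higher, Krt14, with 5 at an unadjusted p under 0.05 and 5 called by DESeq2. The 5 genes at an unadjusted p under 0.05 did not share a direction. Krt14, Krt5, Cdh1 and Trp63 had estimates above 0, and Epcam was lower, at a log2 fold change of -0.51. Of the 7 skeletal muscle genes, defined by Acta1 and Myh3, 1 was called lower, Ckm, with 6 at an unadjusted p under 0.05 and 5 called by DESeq2. No defining marker of any of these lists was at 0 in any library, and their part in the values of the 10 matrix genes was not tested.

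Some pairs among the 10 genes varied together across embryos and others did not. In deviations from the group means over 8 libraries, Pearson's r was highest, at 0.88 for Tnn and Postn, 0.85 for Fbn1 and Eln, 0.84 for Fbln2 and Fbln5, 0.76 for Tnn and Fn1, 0.73 for Fbn1 and Fbn2 and 0.72 for Postn and Fn1. Fbln2 and Tnn ran in opposite directions, with r at -0.93, and Postn and Fbln1 likewise at -0.80. Tnc reached at most 0.53, with Fbln5, and several pairs were near 0, such as Tnc and Fbn1 at -0.01. Against all genes with a mean of at least 10 CPM, the most alike in deviations were Lmbrd2, Gm28496 and Nbeal1 for Tnc (r from 0.98 to 0.99), Bmp2k, Rnf19a and Aspn for Postn (0.97 to 0.98), Xpot, Wee1 and Slc29a1 for Fn1 (0.97 to 0.99), and Spin1, Ptprm and Ctr9 for Eln (0.96 to 0.98). Each of the 10 genes had a best match with an r of at least 0.97 among 10517 genes, the points share library depth and scaling, and nothing on shared function is read from these values.

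Promoter windows from RefSeq on GRCm38.p6, 250 bases before a start and 50 from it on, were matched by symbol for 7 of the 10 genes in 11 windows, with more than 1 start for Postn, Tnc, Fbln1 and Fbln5. The windows of Tnc and Fbln2, the called genes that rose, are shown with that of Postn, which was not called. The first motif searched, on both strands, was TGGGAA, the core of the sequence bound by RBPJ, the DNA-binding protein of Notch signalling. The other motifs were the TATA box form TATATAA, picked after the windows were read, and the GC box, spelled GGGCGG. Capitals mark all matches, which do not overlap. Tnc is shown at the downstream of its starts, at chr4:64046887-64047186 on the minus strand, with the RBPJ core, the TATA form and a GC box. Fbln2 is shown at chr6:91212514-91212813 on the plus strand, with GC boxes on both strands and neither other motif, and its start lies 309 bases inside the GENCODE gene. Postn is shown at chr3:54360857-54361156 on the plus strand, with the TATA form only.
Tnc: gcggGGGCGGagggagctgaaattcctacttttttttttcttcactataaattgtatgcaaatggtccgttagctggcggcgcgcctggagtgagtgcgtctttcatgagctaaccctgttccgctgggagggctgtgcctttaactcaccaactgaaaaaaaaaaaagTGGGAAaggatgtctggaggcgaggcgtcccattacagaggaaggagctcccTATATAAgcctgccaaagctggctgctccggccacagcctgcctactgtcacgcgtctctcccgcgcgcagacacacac
Fbln2: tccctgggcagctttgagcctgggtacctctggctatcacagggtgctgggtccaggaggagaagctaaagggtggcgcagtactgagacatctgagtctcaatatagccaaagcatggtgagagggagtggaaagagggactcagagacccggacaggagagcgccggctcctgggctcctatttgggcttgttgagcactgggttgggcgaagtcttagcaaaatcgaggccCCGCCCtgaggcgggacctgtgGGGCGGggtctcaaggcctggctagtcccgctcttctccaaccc
Postn: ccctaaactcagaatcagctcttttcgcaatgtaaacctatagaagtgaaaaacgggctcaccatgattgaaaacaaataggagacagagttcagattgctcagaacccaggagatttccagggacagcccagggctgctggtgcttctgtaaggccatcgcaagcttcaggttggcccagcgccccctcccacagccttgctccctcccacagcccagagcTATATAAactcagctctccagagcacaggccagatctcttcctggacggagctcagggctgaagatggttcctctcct

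Of 32851 promoter windows of mouse genes, 25.6% held the RBPJ core, 3.24% the TATA form and 35.7% the GC box on either strand. Of the 11 windows of the matrix genes, the RBPJ core was in 5, the TATA form in 2 and the GC box in 6, and windows of the same gene can share bases, as those of Tnc do. Windows with the RBPJ core belonged to Tnc, Fbn1, Fbln1 and Fbln5, and of these only Tnc was called. A match describes the letters of the window and is no evidence of binding. The genes Fn1, Fbn2 and Eln were not matched.

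Genes on the other strand overlap 5 of the 10 genes, and the counting is not stated to use strand. The largest of these in the count tables, 8030451A03Rik within Tnc, had 330 counts over the 8 libraries against 81782 for Tnc, and those within Fn1, Fbn1 and Fbn2 had 82, 36 and 67 counts against 82627, 43053 and 71550. The gene that overlaps Eln was not analysed here.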

How the data were processed

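The authors deposited, for each embryo, the counts of reads on each Ensembl gene, without normalization. The submitters' processing notes name STAR, featureCounts and the build GRCm38.p3, while the methods of the study name GenomicRanges for counting. The use of strand and the treatment of reads with several matches are not given in the sources used here. Symbols, positions and lengths came from GENCODE M21 for 42548 of 43629 identifiers. A gene was kept when 2 or more of the 4 libraries of a group held 10 or more counts of it. Kept genes were scaled by TMM and fitted in edgeR 4.0.16 (R 4.3.3) by quasi-likelihood, with genotype as the only term, and p-values were adjusted by Benjamini-Hochberg over all 17129. P-values reflect the spread between embryos. Replicates of a group differed by more than sampling noise (chi-square per degree of freedom of at least 6.94), so none was a copy of another. Deviations were taken from log2(CPM + 0.5).

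The members and lists were chosen with earlier results of these data known. The genes named were the 10 members, Jag1, genes of the partner lists behind a count of 5 or fewer or among the largest called rises and falls of their list, the most abundant and defining marker of each cell type list, and the 3 genes most alike to Tnc, Postn, Fn1 and Eln. Others named, such as the overlapping genes, Mfap5 and Tnxb in J7, were chosen after their values were seen. Alternatives were other scalings, filters and tests, Xist as a covariate, other fold thresholds and leaving out embryos. The result of 1 cell type list is not reported here, so the cell type values given beside the 10 genes are incomplete.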

Additional observations from a re-analysis of the deposited data

Results flagged for a closer look

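In Control J7, Fbn1 at 288 CPM and Eln at 24.3 CPM lay farther from the other 3 Control libraries than Dixon's criterion for groups of 4 allows. The gap to the nearest library was 0.861 of the range of the group for Fbn1 and 0.858 for Eln. Of 20 groups examined, 2 met the criterion, and chance gives about 1 in 20. Neither gene was called with J7 or without it.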

How the results depend on the processing

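Tnc, Fbn2 and Fbln2 kept their direction under all 20 alternatives run, but the call was lost in 8 of them for Tnc, 5 for Fbn2 and 7 for Fbln2. The 7 genes without a call gained none, and 8 of their estimates reversed: Tnn at -0.49 with Xist as covariate, -0.14 without K14J28 and -0.0036 without J7 and K14J28, Postn at -0.0027 by library size only, -0.52 with Xist, -0.25 without K14J28 and -0.17 without J7 and K14J28, and Fbln5 at -0.00084 without K14J26. With single embryos left out these genes reached 0.60 (Tnn), 0.22 (Postn) and 0.31 (Fbln5) at the other end. Library size scaling gave 864 genes higher and 1065 lower (44.8% of calls higher, 48.5% by upper-quartile and 59.0% by TMM) and left 1 of the 10 genes called higher. DESeq2 called 1718 genes lower, 1 of them of the 10, and Xist as covariate 750, with 0 of the 10. Xist gave Fbn2 a log2 fold change of -0.80 and an adjusted p in edgeR that rounds to 0.05, at the threshold. Without J6 and J7, 3 genes were called higher and 4 lower, and 0 of the 10, with log2 fold changes of 0.50 for Tnc, 1.17 for Fbln2 and -0.61 for Fbn2. Without J6, J7 and K14J26, chosen after the data were seen, 77 were called higher and 74 lower and 0 of the 10 (3 of the 10 at an unadjusted p up to 0.05 in either of these fits). Without J7 and K14J28, 1 of the 10 was called higher. Fewer libraries were tested in these fits.

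With 1 embryo left out, genes called higher ran from 250 to 2479 and lower from 170 to 1845, and of the 10 genes 0 to 2 were higher and 0 to 1 lower. A fold threshold of 1 left 866 genes and 1 of the 10 (Fbln2) past the criteria of the study, and no fold threshold 5971 and 4. The cause of these shifts was not tested. No paired analysis was possible because the labels give the groups no shared replicate numbers. Each of the 10 genes had at least 134 counts in every library, with 4 embryos in a group. The parts of counting error and of the spread between embryos in the precision were not tested.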
